A study of Mus musculus with 8 samples.

Results

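The Hedgehog pathway was described through 9 of its genes in FAPs, the fibro-adipogenic progenitors of mouse muscle, which are stromal cells able to become fat cells or fibroblasts, grown in culture. The members were taken by symbol: Ptch1, Hhip, Boc, Gas1, Smo, Gli1, Gli2, Gli3 and Foxf1, whose Ensembl identifiers were all among the 20781 genes of the count table. Quadriceps, gastrocnemius and tibialis anterior without injury, from wild-type male C57BL/6 mice, gave the cells, which were cultured for 48 h and were then given vehicle (4 libraries) or melatonin (4 libraries), the pineal hormone, for 24 h. The melatonin concentration is not given in the sources used here. The strain is also written as C57BL/6J, and the extraction text names longissimus dorsi, a muscle that is not among the 3 named for the cells. The labels call the libraries biological replicates without tying them to animals, so p-values measure the spread between these libraries. The comparison asks which transcripts differ between progenitors that received melatonin and those that received vehicle.

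Hedgehog ligands bind the receptor Patched, which otherwise holds the membrane protein Smoothened (SMO) inactive. Once released, SMO gathers in the primary cilium, a sensory projection of the cell surface, and changes the processing of the GLI transcription factors, of which GLI2 is the main activator, GLI3 the main repressor and GLI1 an amplifier made in response to the signal. PTCH1, HHIP, BOC, CDON and GAS1 bind ligand at the cell surface, the first pair as inhibitors and the others as co-receptors. Ptch1, Hhip, Gli1 and, in gut and lung mesenchyme, Foxf1 are textbook target genes of the pathway. In skeletal muscle, FAPs are the main ciliated cells, and Hedgehog signalling is known to restrain their adipogenesis.

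Total counts ran from 35584931 to 52401153 per library, and levels are given as CPM, gene counts relative to the library total after TMM, a correction for differences in composition. A library without a count for a gene has an upper limit of 3 counts, 0.0560 to 0.0805 CPM here, which covers counting error only. Markers of FAPs were abundant, summing over 9 genes to 15619 to 18312 CPM with vehicle and 8339 to 9338 CPM with melatonin. Most of that sum was the collagen gene Col1a1, at 12520 to 15220 CPM with vehicle and 6147 to 7016 CPM with melatonin. Of the 9 genes, 0 were higher, 5 were lower and 4 did not pass (Pdgfra, Cd34, Thy1 and Pdgfrb). Pdgfra was at 508 to 630.5 CPM with vehicle and 354 to 509 CPM with melatonin, and Ly6a at 291 to 367 and 194 to 245 CPM. Macrophage markers were present too, summing over 8 genes to 466 to 712 CPM with vehicle and 316 to 593 CPM with melatonin, with 2 higher (C1qa and Mrc1), 1 lower (Csf1r) and 5 that did not pass (among them Adgre1 at 46.8 to 80.4 and 26.0 to 59.6 CPM, Lyz2 at 357 to 553 and 254 to 464 CPM). Tenocyte markers summed over 5 genes to 3364.5 to 4376 CPM with vehicle and 2984 to 3294 CPM with melatonin. Of these 5, 0 were higher, 2 lower and 3 did not pass. Satellite cell and myoblast markers summed over 6 genes to 530 to 732 CPM with vehicle and 374 to 521 CPM with melatonin. Of these 6, 0 were higher, 1 lower (Vcam1) and 5 did not pass. Melatonin replicate 4 stood apart from the other melatonin libraries on the second principal component (-62.7 against 20.1 to 31.4). All 8 adipocyte markers listed were higher with melatonin, and their summed level was 802 to 916 CPM with vehicle and 2207 to 3041 CPM with melatonin. Mitochondrial genes held 1.05% to 1.301% of counts with vehicle and 2.09% to 2.44% with melatonin, without overlap. The part of these in the results below was not tested. In such bulk libraries, fewer cells of a type and less RNA per cell cannot be told apart.

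The promoters of 2 members that moved in opposite directions are shown because the receptor gene Ptch1 was lower and the activator gene Gli2 higher with melatonin. Each is the stretch of 250 bases before the RefSeq start site on GRCm38.p6, written 5′ to 3′ on the gene's strand: chr13:63565736-63565985, minus strand, for Ptch1 and chr1:119053620-119053869, minus strand, for Gli2. The RefSeq start used for Ptch1 lies inside the gene as GENCODE places it (63508328 to 63573598), so this window precedes an internal start and not the gene's outermost one.
Ptch1: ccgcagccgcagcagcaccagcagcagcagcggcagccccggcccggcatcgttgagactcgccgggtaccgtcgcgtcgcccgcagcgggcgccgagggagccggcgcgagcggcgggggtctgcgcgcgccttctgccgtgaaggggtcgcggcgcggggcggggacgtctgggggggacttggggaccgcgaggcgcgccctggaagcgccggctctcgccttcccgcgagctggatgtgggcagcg
Gli2: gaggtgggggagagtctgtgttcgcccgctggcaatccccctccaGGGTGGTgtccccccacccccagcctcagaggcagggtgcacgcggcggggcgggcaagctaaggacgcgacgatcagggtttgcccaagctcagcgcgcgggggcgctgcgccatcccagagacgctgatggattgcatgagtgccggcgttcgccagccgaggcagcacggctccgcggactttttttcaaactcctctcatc
Capitals mark ACCACCC, read here on the opposite strand, which is the inner part of the GLI binding motif GACCACCCA. The whole motif, searched on both strands, was in 0 of the 6 member windows found in the table (Gas1, Gli2, Gli3, Hhip, Ptch1 and Smo) and in 0.225% of all 32851 windows of that length. The inner 7 letters were in the Gli2 window only, 205 bases before the start site, and in 3.92% of all windows. The Ptch1 window was the richest of the 6 in G and C (78.4%), that of Gas1 the poorest (58.8%), and the median of all windows was 52.4%. A match describes letters and is not a measured binding site.

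With melatonin, the target genes Ptch1 and Foxf1, the latter a target in gut and lung mesenchyme, were lower. Of the other target members, Hhip did not pass and Gli1 was not tested. The genes of the transducer SMO, the activator GLI2 and the co-receptor GAS1 were higher. Ptch1 was 2.81-fold lower and Foxf1 2.77-fold lower, while Gli2 was 1.92-fold higher, Gas1 1.53-fold higher and Smo 1.23-fold higher. Of the 9 members 8 passed the filter on low counts, and of these 3 were higher (Gas1, Smo and Gli2), 3 lower (Ptch1, Boc and Foxf1) and 2 did not pass (Gli3 and Hhip). The test was edgeR's quasi-likelihood test with Benjamini-Hochberg adjustment over all 16565 tested genes, of which 36.5% passed at an adjusted p under 0.05, 18.1% higher and 18.5% lower. With library totals alone as scaling, 69.5% of the genes called were higher, against 49.4%, and 5 members were called (3 higher, 2 lower). The groups did not overlap for 6 of the 8 tested members and for 37.7% of all tested genes. The members' median log2 fold change was -0.10 and that of all tested genes 0.01.

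**Figure D1:**
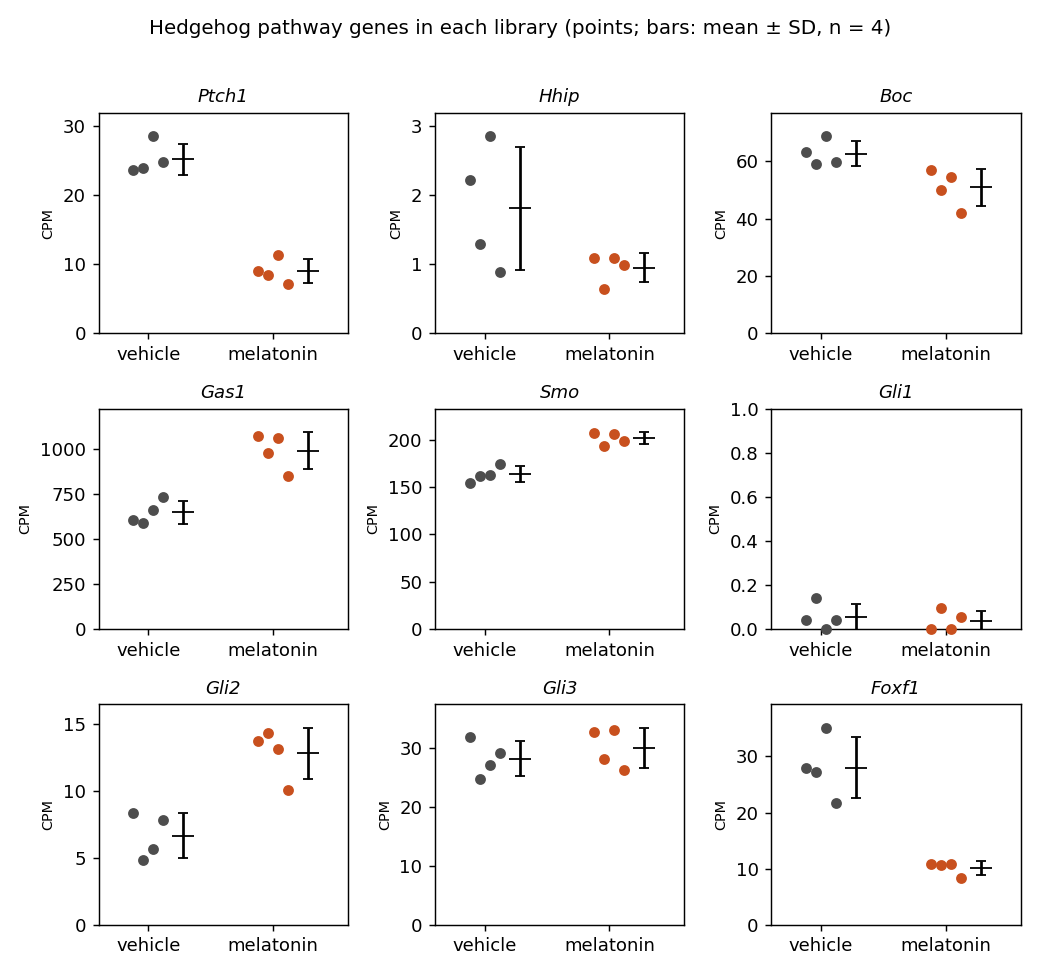
Levels of the 9 Hedgehog pathway genes in CPM (y axes, each from 0) in the 4 vehicle and 4 melatonin libraries (points), with bars for mean ± SD. Ptch1 sits between 23.6 and 28.4 CPM with vehicle and between 7.14 and 11.3 CPM with melatonin, and Gli1 is near 0 in every library.

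Ptch1 encodes the receptor that restrains SMO (ENSMUSG00000021466, chromosome 13, 63508328 to 63573598, minus strand of GRCm38). It was at 23.6, 23.9, 28.4 and 24.7 CPM in vehicle replicates 1 to 4 and at 8.96, 8.41, 11.3 and 7.14 CPM in melatonin replicates 1 to 4. Every melatonin library was below every vehicle library. The log2 fold change was -1.49 ± 0.14 (SE, edgeR adjusted p = 2.9e-05), and the group means were 25.2 ± 2.23 and 8.94 ± 1.72 CPM (SD, n = 4 each). Hhip, which encodes a cell-surface decoy that binds ligand (ENSMUSG00000064325, chromosome 8, 79965851 to 80058006, minus strand), was scarcer, at 2.21, 1.296, 2.85 and 0.882 CPM with vehicle and 1.08, 0.638, 1.08 and 0.992 CPM with melatonin. Vehicle replicates 2 and 4 were close to the melatonin libraries and the groups overlapped. Its log2 fold change of -0.92 (95% interval -1.73 to -0.12 before adjustment) did not pass (edgeR adjusted p = 0.070), but passed without vehicle replicate 4 (-1.15, adjusted p = 0.020) and in DESeq2 (-0.94, adjusted p = 0.036).

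The 2 co-receptor members moved in opposite directions. Gas1, a membrane-anchored co-receptor gene (ENSMUSG00000052957, chromosome 13, 60174405 to 60177365, minus strand), was the most abundant member, at 607, 590.3, 662 and 732 CPM with vehicle and 1073, 975.1, 1059 and 849 CPM with melatonin. It rose in a comparison without overlap between groups (log2 fold change 0.61 ± 0.10, edgeR adjusted p = 0.00083). Boc, which encodes an immunoglobulin-family co-receptor (ENSMUSG00000022687, chromosome 16, 44485049 to 44558897, minus strand), was at 63.1, 58.9, 68.7 and 59.9 CPM with vehicle and 56.8, 50.1, 54.6 and 42.1 CPM with melatonin. Its difference was small (-0.30 ± 0.10, edgeR adjusted p = 0.039), and it did not pass with library totals alone as scaling (-0.14, adjusted p = 0.28) or without vehicle replicate 1, vehicle replicate 3, vehicle replicate 4 or melatonin replicate 2 (-0.25 to -0.32, adjusted p = 0.060 to 0.11). Cdon, the gene of the third co-receptor and not a member, went from 65.6 ± 5.35 to 79.8 ± 5.74 CPM (log2 fold change 0.28 ± 0.08, edgeR adjusted p = 0.019), with overlap between the groups, and did not pass without vehicle replicate 2 (adjusted p = 0.055) or vehicle replicate 3 (adjusted p = 0.053).

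Smo, the gene of the signal-transducing membrane protein (ENSMUSG00000001761, chromosome 6, 29735503 to 29761365, plus strand), was at 155, 162, 163 and 175 CPM with vehicle and 207, 194, 207 and 199 CPM with melatonin. The lowest melatonin library was above the highest vehicle library, and the log2 fold change was 0.30 ± 0.06 (edgeR adjusted p = 0.0031). With Ptch1 lower and Smo higher, the ratio of Ptch1 to Smo within a library, in counts per exon base, was 0.0605, 0.0585, 0.0693 and 0.0560 with vehicle and 0.0171, 0.0172, 0.0216 and 0.0142 with melatonin. That is 3.51-fold lower with melatonin.

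Gli2, the gene of the main GLI activator (ENSMUSG00000048402, chromosome 1, 118834132 to 119053619, minus strand), was at 8.33, 4.86, 5.66 and 7.82 CPM with vehicle and 13.8, 14.3, 13.2 and 10.1 CPM with melatonin. All melatonin libraries were above all vehicle libraries (log2 fold change 0.94 ± 0.19, edgeR adjusted p = 0.0030), with melatonin replicate 4 the lowest of its group. Gli3, the gene of the main GLI repressor (ENSMUSG00000021318, chromosome 13, 15463235 to 15730026, plus strand), was at 31.8, 24.7, 27.2 and 29.2 CPM with vehicle and 32.8, 28.1, 33.1 and 26.3 CPM with melatonin. The groups overlapped throughout, and the log2 fold change of 0.09 had a 95% interval of -0.15 to 0.33 (edgeR adjusted p = 0.55). The ratio of Gli2 to Gli3 within a library, per exon base, was 0.365, 0.275, 0.290 and 0.373 with vehicle and 0.587, 0.711, 0.555 and 0.536 with melatonin, 1.84-fold higher with melatonin.

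Gli1, the target gene that is commonly read as a sign of active signalling (ENSMUSG00000025407, chromosome 10, 127329882 to 127341974, minus strand), was close to undetected. It had 2, 6, 0 and 2 counts in vehicle replicates 1 to 4 and 0, 4, 0 and 2 in melatonin replicates 1 to 4, or 10 and 6 counts in all. In 6 of 8 libraries the count was below 3, the upper limit used for a library without a count, and no fold is given. Low counts here may not be independent molecules, in which case that limit is too low. Gli1 overlaps Arhgap9 on the opposite strand, which had 430 counts in all, and the use of strand in counting is not given in the sources used here. At this depth a difference in Gli1 was not detectable, and it was the member left out by the filter.

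Foxf1, which encodes a forkhead transcription factor of mesenchyme (ENSMUSG00000042812, chromosome 8, 121084386 to 121088144, plus strand), was at 27.9, 27.2, 35.1 and 21.8 CPM with vehicle and 10.8, 10.6, 10.8 and 8.29 CPM with melatonin. Even the highest melatonin library had less than the lowest vehicle library (log2 fold change -1.47 ± 0.15, edgeR adjusted p = 5.4e-05). Melatonin replicate 4 was below the other 3, and without it the difference was -1.38 (adjusted p = 5.6e-05). Foxf1 lies in a cluster of forkhead genes, whose neighbours were chosen after their values were seen. The divergent non-coding gene Fendrr (chromosome 8, 121054882 to 121083110, minus strand) went from 1.04 ± 0.22 to 0.338 ± 0.28 CPM (-1.62 ± 0.50, edgeR adjusted p = 0.030), and its adjusted p was 0.056 to 0.077 without vehicle replicate 1 or 3 or melatonin replicate 1 or 3. Foxl1, a forkhead gene of gut mesenchyme that is downstream of Hedgehog there (121127940 to 121130644, plus strand), was at 1.17, 1.27, 0.943 and 1.24 CPM with vehicle and 0.387, 0.284, 0.112 and 0.429 CPM with melatonin (-1.95 ± 0.36, edgeR adjusted p = 0.0020). Foxc2, which lies between Foxf1 and Foxl1, did not pass (8.20 ± 1.15 and 7.71 ± 1.41 CPM, edgeR adjusted p = 0.68), nor did Mthfsd next to it (adjusted p = 0.28, and 0.023 with library totals alone).

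**Figure D2:**
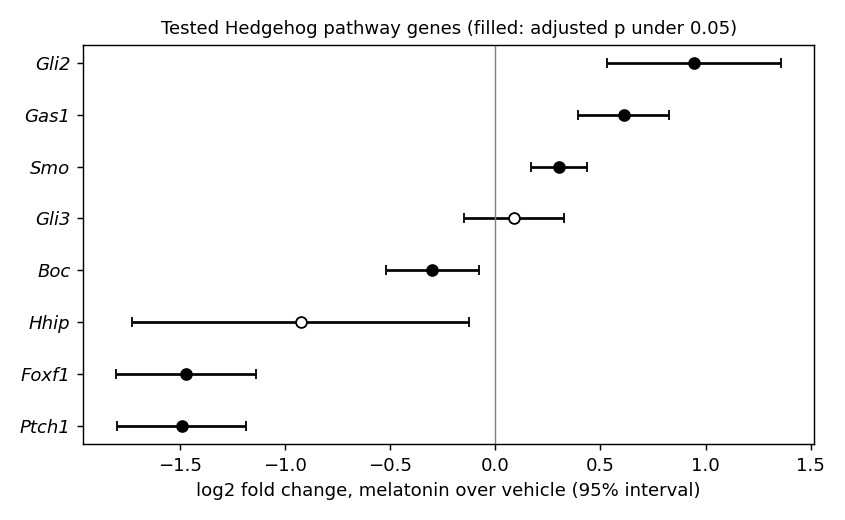
Log2 fold changes of the 8 tested members, melatonin over vehicle (x axis), with 95% intervals from the edgeR fit before adjustment, and filled points where the adjusted p was under 0.05. Ptch1 (-1.49) and Foxf1 (-1.47) lie farthest to the left and Gli2 (0.94) farthest to the right, while the interval of Gli3 spans 0.

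Levels of different genes were compared as CPM per kb of merged GENCODE exons. With vehicle the order was Gas1 (219 ± 21.5), Smo (29.1 ± 1.5), Boc (14.1 ± 0.99), Foxf1 (11.6 ± 2.264), Gli3 (2.95 ± 0.32), Ptch1 (1.77 ± 0.16), Gli2 (0.971 ± 0.24), Hhip (0.199 ± 0.098) and Gli1 (0.0110 ± 0.012). With melatonin, Gli2 (1.87 ± 0.28 CPM per kb) stood above Ptch1 (0.630 ± 0.12 CPM per kb), and the other places were the same. Neighbours in these orders overlapped only for Boc and Foxf1 with vehicle and for Foxf1 and Gli3 (4.18 ± 0.50 and 3.14 ± 0.35 CPM per kb) with melatonin. Merged exons include every annotated isoform, so the level of a gene with alternative first or last exons is understated.

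The 3 ratios between members, chosen after their values were seen, do not depend on library scaling. Besides Ptch1 to Smo and Gli2 to Gli3, the ratio of Gas1 to Boc was 14.5, 15.1, 14.5 and 18.4 with vehicle and 28.4, 29.3, 29.1 and 30.4 with melatonin, 1.89-fold higher. The groups did not overlap in any of the 3, which the choice of genes by their values fixes in part, so the ratios are a description with no test.

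**Figure D3:**
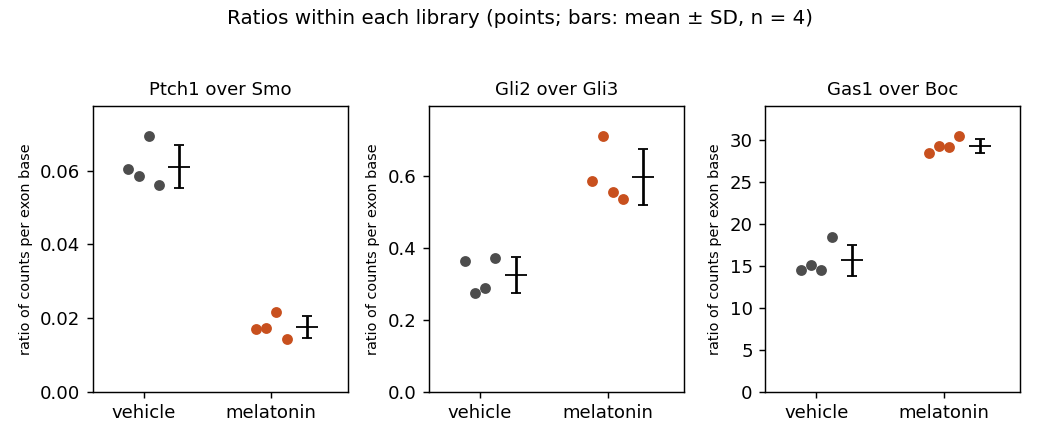
Ratios of counts per exon base within each library (y axes from 0, no unit) for Ptch1 over Smo, Gli2 over Gli3 and Gas1 over Boc, with points for libraries and bars for mean ± SD. The melatonin libraries lie below the vehicle libraries in the panel of Ptch1 over Smo (0.0142 to 0.0216 against 0.0560 to 0.0693) and above them in the other panels.

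The pathway was then followed through 96 other genes in 5 lists, 93 of which were tested. Of these 24 were higher and 12 lower, a share near the 36.5% of all tested genes that passed, with a median log2 fold change of 0.04. With library totals alone as scaling, which moves the median of all genes from 0.01 to 0.17, the split was 39 higher and 9 lower.

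Ligand genes were scarce. Shh matched no row of the count table, whose genes have a total of at least 11 counts. Ihh had 24 counts in all vehicle libraries and 27 in all melatonin libraries and was not tested. Dhh is the ligand gene of Schwann cells in nerve. It was at 1.67, 1.06, 0.811 and 0.922 CPM with vehicle and 0.542, 0.638, 0.672 and 0.536 CPM with melatonin. Its log2 fold change was -0.90 ± 0.27 (edgeR adjusted p = 0.026). Dhh lost its call without vehicle replicate 1 (-0.64, adjusted p = 0.071), without melatonin replicate 1 (adjusted p = 0.069) or 2 (adjusted p = 0.050) and with library totals alone (adjusted p = 0.054). Schwann cell markers summed to 26.0 to 29.4 CPM with vehicle and 29.9 to 37.4 CPM with melatonin over 8 genes, with Sox10 at 5.30 to 6.58 and 7.86 to 10.98 CPM, and their part in the Dhh value was not tested. Of 7 tested genes for ligands and their release, 2 rose and 3 fell, where 18.1% of all tested genes were higher and 18.5% lower. Hhat, whose product attaches the lipid that ligands need, fell (16.6 ± 1.32 to 9.37 ± 0.98 CPM, edgeR adjusted p = 2.0e-04). Disp1, which encodes the ligand exporter, rose (38.9 ± 3.03 to 64.4 ± 3.31 CPM, edgeR adjusted p = 5.9e-05). Among the secreted carriers, Scube3 fell 4.56-fold (2.82 ± 0.37 to 0.612 ± 0.16 CPM, edgeR adjusted p = 4.9e-05) and Scube1 rose from 0.895 ± 0.21 to 1.66 ± 0.50 CPM (edgeR adjusted p = 0.027, and 0.052 to 0.078 without vehicle replicate 2 or 4 or melatonin replicate 1 or 3).

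In the list of 16 genes for reception and the regulation of SMO, 3 rose, 2 fell and 11 did not pass. The share that passed among all tested genes was 36.5%. Gpc4, a glypican gene, fell (349 ± 27.1 to 241 ± 10.4 CPM, edgeR adjusted p = 0.00028). Evc, whose product binds SMO at the base of the cilium, rose (43.2 ± 3.21 to 61.0 ± 6.10 CPM, edgeR adjusted p = 0.0018), as did Arrb2, a beta-arrestin gene (0.47 ± 0.13, edgeR adjusted p = 0.018, and 0.053 without vehicle replicate 3).

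Of 18 genes for the processing and turnover of GLI proteins, 2 were higher, 2 lower and 14 did not pass, where 36.5% of all tested genes passed. The groups did not overlap for 6 of the 18, against 37.7% of all tested genes. Sufu, which encodes the protein that holds GLI factors in the cytoplasm, was at 58.8 ± 2.43 CPM with vehicle and 55.2 ± 2.75 CPM with melatonin (log2 fold change -0.09, edgeR adjusted p = 0.30, and 0.07 with adjusted p = 0.47 when library totals alone were used). Kif7, the gene of a ciliary-tip kinesin that organises GLI regulation, rose from 12.3 ± 0.41 to 18.2 ± 3.65 CPM (0.57 ± 0.14, edgeR adjusted p = 0.0089). For protein kinase A, which phosphorylates GLI2 and GLI3, the catalytic subunit gene Prkaca rose (0.26 ± 0.06, edgeR adjusted p = 0.0046) and the regulatory subunit gene Prkar1a fell (-0.24 ± 0.06, edgeR adjusted p = 0.015). Prkar1a did not pass with library totals alone (-0.08, adjusted p = 0.28). Spop, a ubiquitin ligase adaptor gene, fell slightly (-0.22 ± 0.07, edgeR adjusted p = 0.037). It lost that call with library totals alone (-0.07), with upper quartile scaling (adjusted p = 0.060) and without any library except melatonin replicate 4 (adjusted p = 0.059 to 0.12).

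Of 12 tested genes listed as downstream of the pathway, 1 rose, 4 fell and 7 did not pass. Over all tested genes 36.5% passed, 18.1% higher and 18.5% lower. Among those that fell were Foxl1, Foxf2 and Ccnd1. Ccnd1, the cyclin D1 gene and a target of many growth pathways, was at 386, 394, 473 and 437 CPM with vehicle and 212, 195, 190.2 and 238 CPM with melatonin (log2 fold change -1.02 ± 0.09, edgeR adjusted p = 3.1e-05). Foxf2, the paralogue of Foxf1, went from 31.8 ± 1.79 to 22.6 ± 1.65 CPM (-0.50 ± 0.08, edgeR adjusted p = 0.00089). Timp3, a metalloproteinase inhibitor gene that Hedgehog signalling is known to induce in FAPs, rose slightly, from 372 ± 23.9 to 432 ± 30.9 CPM (0.22 ± 0.07, edgeR adjusted p = 0.042). The call for Timp3 was lost without vehicle replicate 2, 3 or 4 or melatonin replicate 1, 2 or 4 (adjusted p = 0.057 to 0.11). Ccnd2, Bcl2, Bmp4, Snai1, Nr2f2, Foxc2 and Foxm1 did not pass, and Mycn was not tested.

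In the list of 41 primary cilium genes, 16 rose, 2 fell and 23 did not pass, where 18.1% of all tested genes were higher and 18.5% lower. The groups did not overlap for 17 of the 41, against 37.7% of all tested genes, and the median log2 fold change was 0.19. Their summed level was 811 to 847 CPM with vehicle and 914 to 945 CPM with melatonin, without overlap. Tmem231, a gene of the transition zone at the base of the cilium, rose from 9.01 ± 1.10 to 19.1 ± 1.64 CPM (1.08 ± 0.11, edgeR adjusted p = 5.5e-05). The retrograde transport genes Ift122 (37.2 ± 1.78 to 53.9 ± 2.78 CPM, edgeR adjusted p = 2.0e-04) and Dync2li1 (14.9 ± 0.81 to 22.9 ± 2.01 CPM, edgeR adjusted p = 0.00042) rose as well. Cc2d2a, another transition zone gene, fell (27.1 ± 1.31 to 16.2 ± 2.44 CPM, edgeR adjusted p = 0.00059), as did Ift20 (49.4 ± 4.03 to 37.1 ± 4.19 CPM, edgeR adjusted p = 0.0070). With library totals alone the cilium list had 24 higher and 2 lower.

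**Figure D4:**
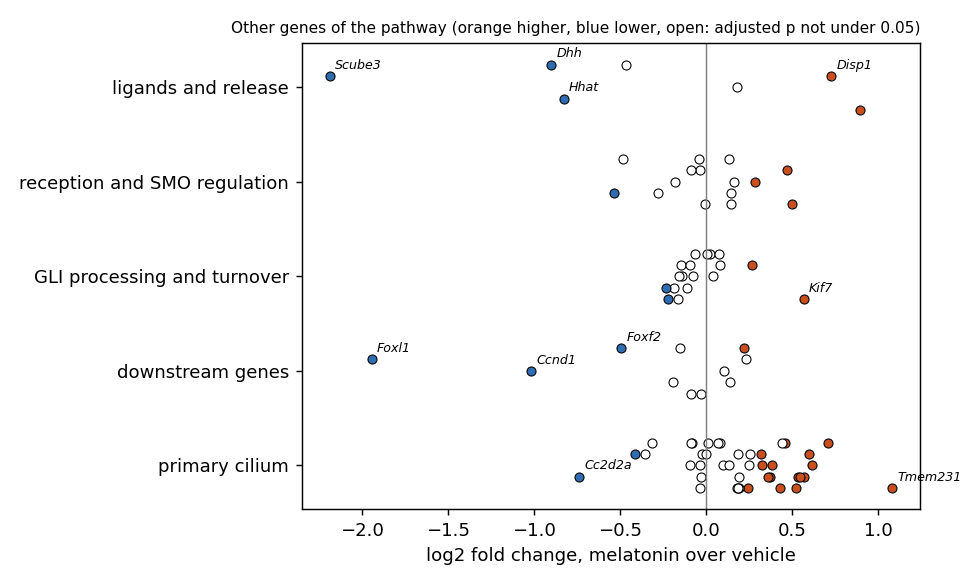
Log2 fold changes (x axis, melatonin over vehicle) of tested genes in 5 lists of the pathway beyond the members (y axis), without a gene that is not reported here, 1 point per gene, orange where higher, blue where lower and open where the edgeR adjusted p was not under 0.05. Scube3 (-2.19) and Foxl1 (-1.95) lie far to the left, and the cilium genes lie mostly to the right of 0.

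The genes whose pattern over the 8 libraries was most like that of Ptch1, by the root mean square difference of log2 CPM centred on each gene's mean, were Angpt1 (0.122), the pseudogene Rbpj-ps3 (0.131), C4b (0.131), Stc1 (0.136) and Arrdc4 (0.140). This is a description over 8 libraries of 2 groups, and Ptch1 was chosen for it after the values were seen because Gli1, for which it was planned, had too few counts for a readable pattern.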

How the data were processed

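RNA was sequenced from 8 libraries, 4 per group. The authors deposited raw counts per Ensembl gene, whole numbers with a total of at least 11 per gene. HISAT2 2.0, StringTie 1.3.3b, bedtools 2.26.0, DESeq2 1.12.4, Trimmomatic 0.36 and FastQC 0.11.2 are named, with build mm10, per the submitters' processing notes. For counting, the program, annotation and strand setting were not given in the sources used here. Columns headed as control were read as vehicle, the only group besides melatonin. Counts of 1 to 20 were even in 60.2% to 62.5% of cases (49.2% to 50.5% for counts of 201 to 2000), so low counts may not be independent molecules. Libraries of a group differed by more than sampling noise (chi-square per gene 25.0 to 79.9).

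Symbols, positions and exon lengths came from GENCODE M21 on GRCm38, which matched 20720 of 20781 identifiers. Genes were kept with filterByExpr (16565), scaled with TMM (factors 0.916 to 0.974 for vehicle, 1.05 to 1.08 for melatonin) and tested with edgeR 4.0.16, robust quasi-likelihood, group as the only term, Benjamini-Hochberg threshold 0.05. The SE is the log2 fold change divided by the square root of F. The steps were tested on simulated data. DESeq2 1.42.0, limma-voom (limma 3.58.1), other scalings and filters, a threshold of 0.01, the replicate number as a block and leaving out each library were alternatives.

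The members and lists were chosen with earlier results of these data known. All members, Shh, Ihh, Dhh, Cdon, Sufu and Kif7 were named whatever their result, and from each other list the 3 genes with the smallest p in each direction among those that passed. Results of some listed genes are not reported here, though the counts of each list include them. Promoters came from a set of windows at RefSeq start sites, and 6 of the 9 members were in that set.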

Additional observations from a re-analysis of the deposited data

Results flagged for a closer look

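In each group of 4 libraries, the 104 pathway genes in the table were checked for a library far from the other 3, where the gap to the nearest divided by the range was above 0.829. Of 208 groups 14 met this, and chance gives about 1 in 20. Among the members only Foxf1 did, with 8.29 CPM in melatonin replicate 4 against 10.6 to 10.8 in the others. Melatonin replicate 4 was also low for Arrb2 (10 against 13.1 to 13.6 CPM) and Ulk3 (7.59 against 8.98 to 9.15 CPM), and high for Arl6 (10.5 against 6.45 to 6.70 CPM) and Mks1 (7.38 against 6.21 to 6.40 CPM). Melatonin replicate 3 was high for Ihh (0.317 against 0.0536 to 0.0945 CPM), Scube2 (1.38 against 0.898 to 0.949 CPM) and Arl13b (15.0 against 12.4 to 12.8 CPM).

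Gpr161 encodes a ciliary receptor that restrains the pathway. Vehicle replicate 2 had 2.04 CPM of it, against 13.5 to 15.0 CPM in the other vehicle libraries. The melatonin libraries had 9.07 to 12.3 CPM of Gpr161, between these levels. With all libraries Gpr161 did not pass (log2 fold change -0.04 ± 0.51, edgeR adjusted p = 0.96), and its result without vehicle replicate 2 is not given here. Vehicle replicate 2 also had 28.5 CPM of Bmp4 against 9.63 to 12.3 CPM. Its levels were 123 CPM of Mgrn1 against 116 to 117 CPM and 5.63 CPM of Bbs4 against 7.02 to 7.12 CPM. Vehicle replicate 4 was high for Kif3b (52.6 against 47.0 to 47.8 CPM) and Cc2d2a (29.1 against 26.2 to 26.6 CPM).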

How the results depend on the processing

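The number of members that passed was 5 to 7 over 17 alternatives, with Gas1, Smo and Gli2 higher and Ptch1 and Foxf1 lower past the threshold in every alternative fit. Boc lost its call with library totals alone (-0.14, adjusted p = 0.28), and over the fits without a library it ranged from -0.35 to -0.21. Hhip passed in DESeq2 (-0.94, adjusted p = 0.036) and ranged from -1.15 to -0.62 without a library. At a threshold of 0.01 the genes called fell from 6054 to 3865, and the wider pathway genes from 36 to 25. For 27 other named genes, 406 of 456 values kept direction and side of the threshold, 45 lost the call, 1 gained it and 4 reversed: Sufu (0.066) and Foxc2 (0.0687) with library totals alone, and Foxc2 without vehicle replicate 4 (0.00973) or melatonin replicate 1 (0.0068), where leaving out a library gave -0.197 to 0.00973. The cause of these changes was not tested. The log2 differences of the ratios were -1.92 to -1.72, 0.79 to 0.95 and 0.88 to 0.996 without a library.

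Same-numbered libraries showed no shared deviation: their deviations correlated at -0.04 to 0.04, and 0 of 4 numbers matched best with their own. These correlations cannot decide whether the samples were paired, because pairs without a strong shared effect would look the same. With the replicate block 4942 genes, 6 members and 29 wider pathway genes were called. The block ended the calls of Dhh, Arrb2, Cdon, Prkar1a, Spop and Timp3 (adjusted p = 0.059 to 0.094). Depth limits Gli1, Ihh and Mycn.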
